A study of Mus musculus with 20 samples.

Results

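The expression of 7 genes of the immune checkpoint system, of the 30142 genes measured, was followed across 20 arrays of mouse bladders and metastases. The ligands were Cd274 and Pdcd1lg2 and the receptors Pdcd1, Ctla4, Lag3, Havcr2 and Tigit. Each was chosen by its symbol, taking the row of the deposited table that the platform annotation pairs with that gene alone. Of several such rows of a gene, the one with the highest mean over all arrays was taken. All 7 had such a row. The groups were 1 palbo metastasis, 4 metastases, 3 treated bladders, 7 tumour bladders and 5 normal bladders.

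All mice were CKO mice of the FVB/N strain, which carry floxed alleles, that of Rb among them, and are p107-/-, so the normal bladders lack p107 as well. Tumour bladders had been inoculated with an adenovirus that codes for Cre recombinase, which deletes floxed alleles in the cells it enters. Treated bladders had the same inoculation and came from mice given palbociclib, an inhibitor of the cell cycle kinases Cdk4 and Cdk6, at 150 mg/kg by intraperitoneal injection each day for 28 days together with CDDP (cisplatin) at 6 mg/kg each week. Metastases are labelled as metastatic tumours without their site. The palbo metastasis is set apart from them by its title alone, and its treatment is not stated otherwise. The labels give no age or sex of the mice and do not say whether each array came from its own animal. No inoculation is named for the normal bladders, so the virus and the gene deletions cannot be told apart in their comparison with tumour bladders.

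Immune checkpoints are pairs of surface proteins that restrain T cells. PD-L1 (Cd274) and PD-L2 (Pdcd1lg2) bind PD-1 (Pdcd1), which dampens signalling from the T cell receptor. PD-L1 is made by many tissues and by myeloid cells and is induced by interferon gamma, whereas PD-L2 is made mainly by dendritic cells and macrophages. CTLA-4 (Ctla4) competes with CD28 for CD80 and CD86, LAG-3 (Lag3) binds MHC class II, TIM-3 (Havcr2) is found on exhausted T cells and also on macrophages and dendritic cells, and TIGIT binds nectin family proteins. In bladder cancer, antibodies against PD-1 and PD-L1 are in clinical use.

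Cd274 (chromosome 19, 29362107 to 29388095) and Pdcd1lg2 (chromosome 19, 29410919 to 29472927) are neighbours in the mouse genome (GRCm38.p6, RefSeq). Pdcd1 lies on chromosome 1 at 94038305 to 94052553, Ctla4 on chromosome 1 at 60909025 to 60915832, Lag3 on chromosome 6 at 124904359 to 124912434, Havcr2 on chromosome 11 at 46454931 to 46481255 and Tigit on chromosome 16 at 43626137 to 43665125. RefSeq promoters were at hand for 6 of the 7 genes. The 250 bases before the transcript start are shown for the ligand and the 3 receptors whose levels are given array by array below. They are in lower case, with a motif found by search in capitals. For Cd274 and Tigit, the start used by the promoter table lies inside the annotated span of the gene.
Cd274 (chr19:29367188-29367437, plus strand): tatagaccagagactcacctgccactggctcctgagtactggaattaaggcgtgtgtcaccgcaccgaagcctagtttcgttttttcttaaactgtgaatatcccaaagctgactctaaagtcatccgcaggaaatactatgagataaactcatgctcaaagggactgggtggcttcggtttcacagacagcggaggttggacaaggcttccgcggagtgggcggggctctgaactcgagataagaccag
Pdcd1 (chr1:94052554-94052803, minus strand): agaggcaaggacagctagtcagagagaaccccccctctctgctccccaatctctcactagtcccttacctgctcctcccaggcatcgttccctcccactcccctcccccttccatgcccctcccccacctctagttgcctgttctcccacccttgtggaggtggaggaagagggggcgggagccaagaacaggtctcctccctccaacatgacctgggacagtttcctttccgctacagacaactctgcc
Havcr2 (chr11:46454681-46454930, plus strand): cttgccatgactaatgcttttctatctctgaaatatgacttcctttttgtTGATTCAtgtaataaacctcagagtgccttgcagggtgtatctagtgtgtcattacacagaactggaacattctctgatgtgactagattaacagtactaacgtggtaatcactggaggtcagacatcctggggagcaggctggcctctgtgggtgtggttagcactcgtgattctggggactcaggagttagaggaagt
Tigit (chr16:43664185-43664434, minus strand): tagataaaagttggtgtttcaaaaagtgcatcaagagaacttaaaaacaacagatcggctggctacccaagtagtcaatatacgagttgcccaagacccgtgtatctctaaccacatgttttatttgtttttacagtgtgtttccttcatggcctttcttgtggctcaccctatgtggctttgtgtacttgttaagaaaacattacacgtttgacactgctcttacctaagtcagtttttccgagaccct
The windows were searched on both strands for 5 motifs of factors that act on immune genes. These were the STAT element TTCNNNGAA, the AP-1 site TGANTCA, the NFAT core TGGAAA, and a core of the interferon-stimulated response element and a site of NF-kB. Havcr2 held the AP-1 motif at -200 to -194 from the start (TGATTCA, capitals above), which 6.87% of 27025 promoters hold. Ctla4, at chr1:60908775-60909024, held the NFAT core on the opposite strand at -144 to -139, which 18.69% of promoters hold. The other 4 windows held none of the 5 motifs. The STAT, interferon response and NF-kB motifs, present in 7.18%, 3.04% and 1.4% of promoters, were in none of the 6 windows. These are matches of letters only.

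Values are log2 expression levels made by RMA, in which 1 unit is a doubling, and the median of an array lay between 5.11 and 5.48. A level on an array also depends on the probes, so no gene's level is set against another's. All 7 genes were near the middle or below it, with means over the 20 arrays of 4.68 (Tigit) to 5.50 (Pdcd1). Cd274, Pdcd1lg2 and Tigit had means under 5.10, the 40th percentile of all rows. A set of 8 arrays stood apart by a wide spread among dim rows and a low correlation with all other arrays, and are called the 8 below. Metastases 3 and 4, tumour bladders 3, 4 and 5 and normal bladders 4, 5 and 6 made up this set, and the remaining arrays are called the 12. Differences that turn on these arrays are also given within each set. The bladder label was checked against 11 markers of luminal and basal urothelium, whose mean level was 4.89 in the palbo metastasis, 5.28 to 6.81 in metastases, 7.16 to 8.48 in treated bladders, 5.64 to 9.62 in tumour bladders and 6.72 to 8.31 in normal bladders. Tumour bladders 2 and 6 had the lowest bladder means, 5.91 and 5.64. On the 8 arrays this mean lay between 6.71 and 6.88, and that of 8 smooth muscle markers between 6.67 and 6.89, whatever the label. Metastases 3 and 4, at 6.81 and 6.71 for urothelium and 6.75 and 6.77 for smooth muscle, were thus level with normal bladders 4, 5 and 6. Smooth muscle means were 8.727 and 8.725 in normal bladders 1 and 2, but 6.79 to 6.89 in normal bladders 4, 5 and 6. On the 8 arrays these markers thus did not tell bladders from metastases. They do not bear out the metastasis label of metastases 3 and 4 and cannot check the other labels there. All arrays are called by their labels throughout. Values within the 12 arrays leave out metastases 3 and 4.

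Cd274, which encodes PD-L1, was highest on metastasis 1 and otherwise varied little. Its level was 5.35 in the palbo metastasis and 5.87, 4.91, 5.15 and 4.97 in metastases 1 to 4. Treated bladders 1 to 3 were at 5.03, 4.90 and 4.75. Tumour bladders ran from 4.72 to 5.21 with a median of 4.93, against 4.72, 4.89, 5.17, 5.09 and 5.11 in normal bladders 1, 2, 4, 5 and 6. Metastasis 1 lay above every other array, and the other 3 metastases lay among the bladders. The groups averaged 5.22 ± 0.44 (SD, n = 4) in metastases, 4.89 ± 0.14 (SD, n = 3) in treated bladders, 4.93 ± 0.15 (SD, n = 7) in tumour bladders, against 4.997 ± 0.19 (SD, n = 5) in normal bladders. The SD over the 12 arrays, which hold metastasis 1, was 0.318, and over the 8 it was 0.149.

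Pdcd1lg2, which encodes PD-L2, had the smallest SD of the 7 over the 20 arrays, 0.169, where the median over all genes was 0.27. It was at 4.96 in the palbo metastasis and ran from 4.63 to 5.23 in metastases, 4.77 to 4.95 in treated bladders, 4.74 to 5.32 in tumour bladders and 4.75 to 5.03 in normal bladders. Group means lay within 0.07 of each other, at 4.86 ± 0.26 (SD, n = 4) in metastases, 4.85 ± 0.09 (SD, n = 3) in treated bladders, 4.92 ± 0.20 (SD, n = 7) in tumour bladders, against 4.86 ± 0.11 (SD, n = 5) in normal bladders. Its highest array was tumour bladder 1 and its lowest metastasis 3. The neighbouring gene Cd274 was at 4.93 and 5.15 on these arrays, on either side of its mean of 5.02.

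Pdcd1 encodes PD-1, the receptor for both ligands, and was higher in most metastases than in tumour bladders. It was at 5.61 in the palbo metastasis and at 5.99, 5.41, 5.85 and 5.72 in metastases 1 to 4. Treated bladders 1 to 3 were at 5.34, 5.77 and 5.32. Tumour bladders ran from 5.21 to 5.51 with a median of 5.35, against 5.38, 5.43, 5.35, 5.47 and 5.78 in normal bladders 1, 2, 4, 5 and 6. Metastases 1, 3 and 4 were above all 7 tumour bladders and metastasis 2 was among them, while treated bladder 2 and normal bladder 6 reached the level of the metastases. Group means were 5.74 ± 0.25 (SD, n = 4) in metastases, 5.48 ± 0.25 (SD, n = 3) in treated bladders, 5.37 ± 0.12 (SD, n = 7) in tumour bladders, against 5.48 ± 0.17 (SD, n = 5) in normal bladders.

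Ctla4, the inhibitory counterpart of CD28 on T cells, was highest in the palbo metastasis at 5.49. Metastases 1 to 4 were at 5.41, 4.998, 5.41 and 4.97, with a pair of arrays above all tumour bladders and a pair below all of them. It ran from 4.95 to 5.21 in treated bladders, from 5.01 to 5.36 in tumour bladders and from 4.90 to 5.28 in normal bladders. Group means were 5.20 ± 0.25 (SD, n = 4) in metastases, 5.07 ± 0.13 (SD, n = 3) in treated bladders, 5.17 ± 0.16 (SD, n = 7) in tumour bladders, against 5.10 ± 0.17 (SD, n = 5) in normal bladders. These ranges overlapped throughout.

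Lag3, whose protein binds MHC class II on antigen-presenting cells, spread most among the tumour bladders. It was at 5.54 in the palbo metastasis and ran from 5.12 to 5.31 in metastases, 4.94 to 5.21 in treated bladders, 4.79 to 5.58 in tumour bladders and 5.08 to 5.32 in normal bladders. Both its highest array, tumour bladder 1, and its lowest, tumour bladder 5, were of the same group. Means were 5.21 ± 0.10 (SD, n = 4) in metastases, 5.10 ± 0.14 (SD, n = 3) in treated bladders, 5.19 ± 0.27 (SD, n = 7) in tumour bladders, against 5.23 ± 0.11 (SD, n = 5) in normal bladders.

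Havcr2 encodes TIM-3, which macrophages and dendritic cells carry as well as T cells. It was at 5.72 in the palbo metastasis, at 5.50, 5.60, 5.26 and 5.61 in metastases 1 to 4 and at 4.96, 5.18 and 5.18 in treated bladders 1 to 3. Tumour bladders ran from 4.99 to 5.73 with a median of 5.25, against 4.93, 5.08, 5.61, 5.45 and 4.96 in normal bladders 1, 2, 4, 5 and 6. Treated bladders lay among the lower tumour and normal bladders. Tumour bladder 6 had the highest level of all arrays, and normal bladder 4 was level with metastases 2 and 4. Means were 5.49 ± 0.16 (SD, n = 4) in metastases, 5.11 ± 0.13 (SD, n = 3) in treated bladders, 5.32 ± 0.23 (SD, n = 7) in tumour bladders, against 5.20 ± 0.31 (SD, n = 5) in normal bladders.

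Tigit, a receptor of T and NK cells, was lower in most metastases than in tumour and normal bladders. It was at 5.001 in the palbo metastasis and at 4.66, 4.36, 4.21 and 4.40 in metastases 1 to 4. Treated bladders 1 to 3 were at 4.62, 4.74 and 4.38. Tumour bladders ran from 4.41 to 5.06 with a median of 4.67, against 4.51, 4.63, 4.73, 5.44 and 4.70 in normal bladders 1, 2, 4, 5 and 6. Metastases 2, 3 and 4 were below all tumour and all normal bladders, metastasis 1 was among them, and the palbo metastasis was above 6 of the 7 tumour bladders. Metastasis 4, at 4.402, was just under tumour bladder 6, at 4.412. Metastases 3 and 4 are among the 8 arrays. Normal bladder 5 had the highest level of all arrays. Means were 4.41 ± 0.19 (SD, n = 4) in metastases, 4.58 ± 0.18 (SD, n = 3) in treated bladders, 4.73 ± 0.22 (SD, n = 7) in tumour bladders, against 4.80 ± 0.37 (SD, n = 5) in normal bladders. Its SD was 0.242 over the 12 arrays and 0.357 over the 8.

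**Figure D1:**
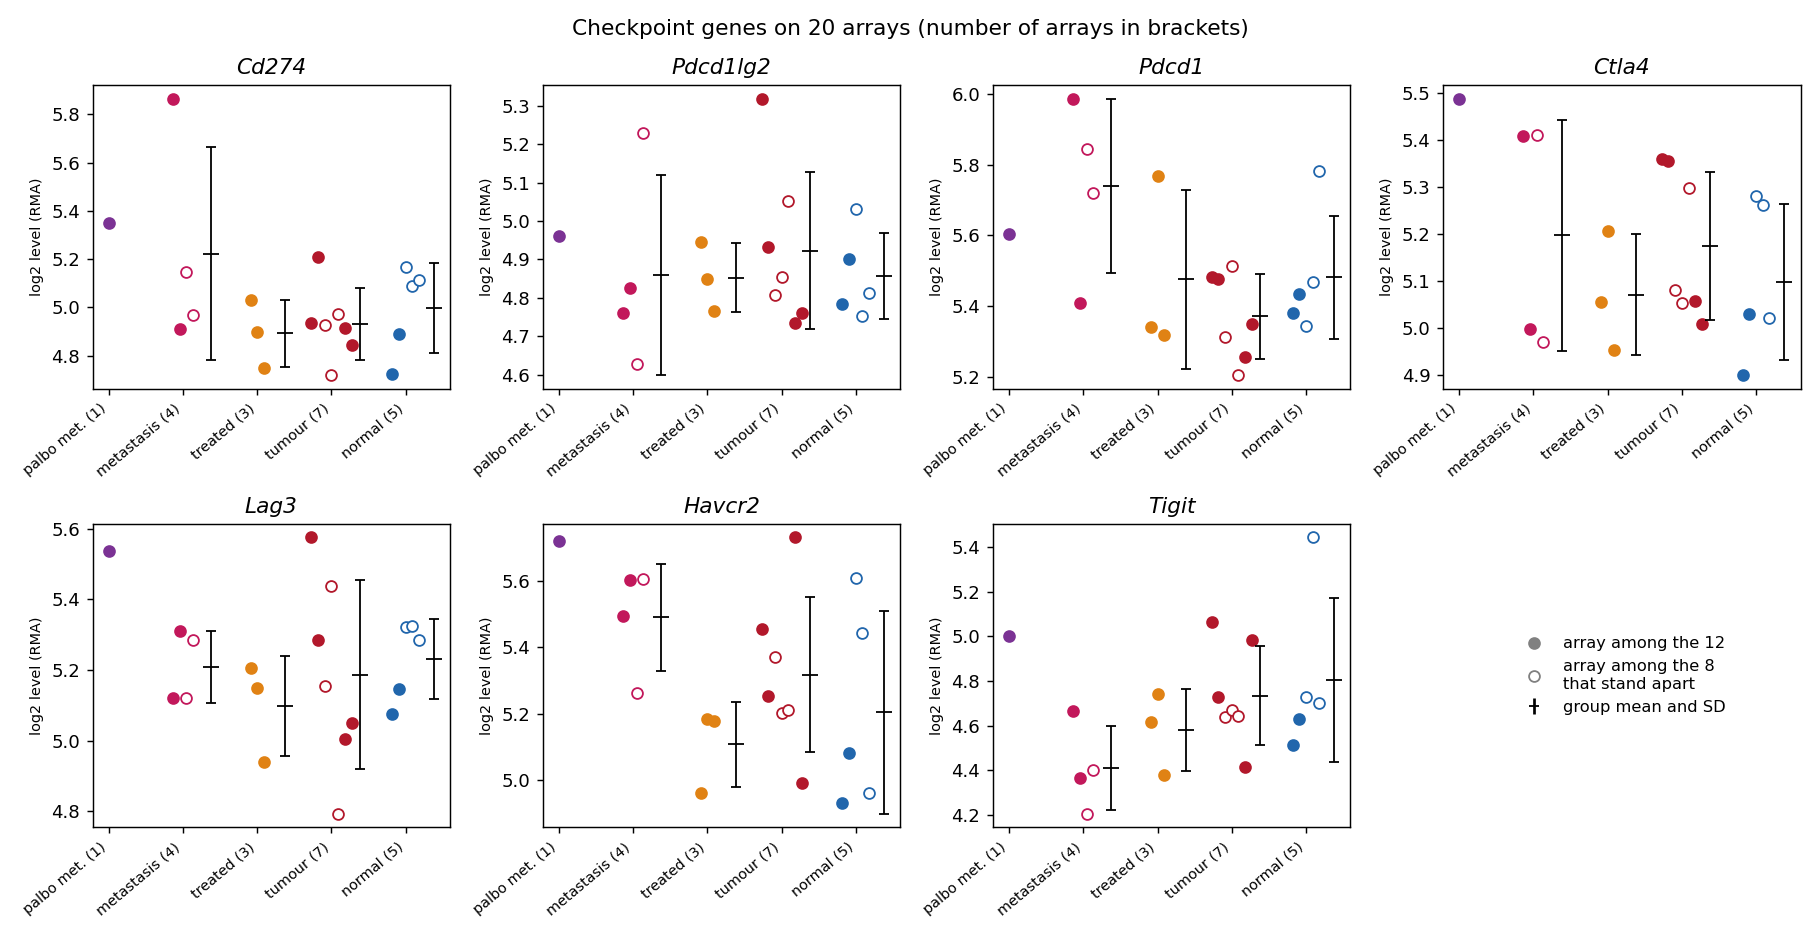
Level of each of the 7 checkpoint genes on every array (y axis, log2 level after RMA) in 5 groups (x axis, with the number of arrays). Points are arrays, open points are the 8 arrays that stand apart, and bars are the group mean and SD. Cd274 is led by 1 metastasis at 5.87, 3 of 4 metastases have more Pdcd1 than any tumour bladder, and 3 of 4 have less Tigit. Both counts include metastases 3 and 4, which are among the 8.

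When the 4 replicated groups were put in order of their mean for each gene, 20 of the 21 neighbouring pairs lay closer together than the larger of their SDs, and the ranges of all 21 overlapped. The exception was Pdcd1, where metastases were 0.259 above normal bladders, with a larger SD of 0.246. Metastases had the highest mean for Cd274, Pdcd1, Ctla4 and Havcr2 and the lowest for Tigit. Treated bladders had the lowest mean for Cd274, Pdcd1lg2, Ctla4, Lag3 and Havcr2.

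Differences between groups were tested in limma, in 1 model over all 20 arrays, with Benjamini-Hochberg adjustment over 30142 genes and a threshold of 0.05, on both sides. The comparisons share arrays, so those that use the same tumour or normal bladders are not independent. In a bulk sample, fewer cells of a type and less RNA per cell cannot be told apart. None of the 7 genes passed in any of the 5 comparisons, and no gene of the whole table passed, a share of 0%. The groups compared overlapped for all 7 genes in each of them. Background shares below are the percentage of all genes with an unadjusted p under 0.05 and the percentage whose groups did not overlap.

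Tumour bladders were compared with normal bladders to ask what differed after Cre inoculation. The checkpoint genes lay close together in both. Differences ran from -0.11 (Pdcd1) to 0.11 (Havcr2), with 3 of 7 higher in tumour bladders and a median of -0.044, where 53.1% of all genes were higher and their median was 0.012. Havcr2 differed by 0.11 (95% interval -0.18 to 0.40) and Cd274 by -0.066 (-0.36 to 0.23). The adjusted p was 0.998 for each of the 7. Unadjusted, 0 of 7 had a p under 0.05 against 4.25% of all genes, and 0 of 7 had groups that did not overlap against 0.166%. Within the 12 arrays, 6 of the 7 were higher in tumour bladders, among them Havcr2 by 0.35, Ctla4 by 0.23 and Tigit by 0.23. Within the 8, 6 of the 7 were lower, among them Tigit at -0.31 and Cd274 at -0.25. The 12 hold 4 tumour and 2 normal bladders and the 8 hold 3 and 3.

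The effect of palbociclib with CDDP was addressed by treated against tumour bladders. Of the 7 genes, 6 had a lower mean in treated bladders, of which Cd274 was higher when arrays were rescaled, and Pdcd1 had a higher one. The largest gap was in Havcr2, at -0.21 (SE 0.16, 95% interval -0.55 to 0.13), with 3 of 3 treated bladders below the tumour mean and 1 below the lowest tumour bladder. Tigit differed by -0.16 (95% interval -0.53 to 0.22) and Pdcd1 by 0.10 (-0.18 to 0.39), the higher mean of Pdcd1 resting on treated bladder 2. Without that array it was -0.041. Within the 12 arrays Havcr2 was at -0.25, Tigit at -0.22 and Cd274 at -0.082. The median was -0.088, where 42.6% of all genes were higher in treated bladders and their median was -0.023. Markers of other cell types also had different means in the same comparison, and none passed. Of T and NK cell markers 0 of 16 were higher in treated bladders (median -0.14), of dendritic cell markers 0 of 10 (-0.092), of B cell and lymph node markers 0 of 8 (-0.23) and of macrophage and monocyte markers 1 of 15 (-0.34). Treated bladder 3 had the lowest mean level of all arrays for T and NK cell markers, 5.09, and for dendritic cell markers, 5.23. Treated bladder 2, at 5.41 and 5.46, was level with the tumour bladder means of 5.40 and 5.46. For the B cell and macrophage lists, all treated bladders were below the tumour bladder mean. Smooth muscle markers were higher in 8 of 8 (median 0.82) and urothelial markers in 10 of 11 (0.56). Tumour bladder 7 was above every treated bladder in mean level of both lists, at 9.82 and 9.62 against at most 8.49 and 8.48. The other tumour bladders were below all treated bladders for urothelium, and most were for smooth muscle. The medians were 1.39 and 1.07 without tumour bladder 7, and 0.34 and 0.096 without treated bladder 3. Of the tumour bladders, 3 are among the 8 arrays, and no treated bladder is. The part of these cell types in the checkpoint genes was not tested. The adjusted p of each of the 7 was 1. Unadjusted, 0 of 7 had a p under 0.05 against 0.342% of all genes, and 0 of 7 had groups that did not overlap against 0.129%.

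Against normal bladders, all 7 genes had a lower mean in treated bladders, though Pdcd1lg2, Pdcd1 and Ctla4 had a higher one when arrays were rescaled. The differences ran from -0.22 (Tigit, 95% interval -0.62 to 0.17) to -0.0037 (Pdcd1lg2), with a median of -0.098, and 46.7% of all genes were higher. Each adjusted p was 1. No gene of the 7 had an unadjusted p under 0.05, against 0.358% of all genes, or groups that did not overlap, against 0.65%. All treated bladders are among the 12 arrays. Within these, with 2 normal bladders, Havcr2 was 0.10 higher in treated bladders and the 7 differences had a positive sign but for Lag3.

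Metastases were compared with tumour bladders to ask how spread tumours differed from those in the bladder. Pdcd1 stood highest, at 0.37 (SE 0.12, 95% interval 0.11 to 0.63, unadjusted), with 4 of 4 metastases above the tumour mean. Its adjusted p was 0.841 in limma. It was 0.31 within the 12 arrays, which hold 2 metastases and 4 tumour bladders, and 0.44 within the 8, which hold 2 and 3. Tigit was at -0.33 (95% interval -0.66 to 0.012, adjusted p = 0.861 in limma), with 4 of 4 metastases below the tumour mean, at -0.28 within the 12 and -0.35 within the 8. Cd274 was at 0.29 (95% interval -0.027 to 0.61, adjusted p = 0.861 in limma), with 3 of 4 metastases above the tumour mean. It was at 0.41 within the 12 and 0.18 within the 8. Without metastasis 1 the difference was 0.077. Havcr2 was at 0.18 (95% interval -0.13 to 0.48) and the other 3 genes lay between -0.063 and 0.023. Of the 7 genes, 1 had an unadjusted p under 0.05, against 5.79% of all genes, and 0 of 7 had groups that did not overlap, against 0.504%. The median of the 7 was 0.023, with 5 higher in metastases, where 43.9% of all genes were higher and their median was -0.026.

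Against normal bladders, Tigit was at -0.39 in metastases (SE 0.17, 95% interval -0.76 to -0.034, unadjusted), with 4 of 4 metastases below the normal mean and an adjusted p of 0.720 in limma. The gap was -0.65 within the 8 arrays, which hold normal bladder 5, and -0.057 within the 12. Without normal bladder 5 it was -0.23. Havcr2 was at 0.29 (95% interval -0.042 to 0.62, adjusted p = 0.736 in limma), at 0.55 within the 12 and 0.097 within the 8. Pdcd1 was at 0.26 (95% interval -0.016 to 0.53, adjusted p = 0.728 in limma), with 3 of 4 metastases above the normal mean, and at 0.29 within the 12 and 0.25 within the 8. Cd274 was at 0.23 (95% interval -0.12 to 0.57), at 0.58 within the 12, at -0.066 within the 8 and at 0.011 without metastasis 1. The median was 0.098, with 5 of 7 higher in metastases where 47.3% of all genes were, and the sign of Lag3 (-0.021) turned when arrays were rescaled. Of the 7 genes, 1 had an unadjusted p under 0.05, against 6.91% of all genes, and 0 of 7 had groups that did not overlap, against 2.85%.

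**Figure D2:**
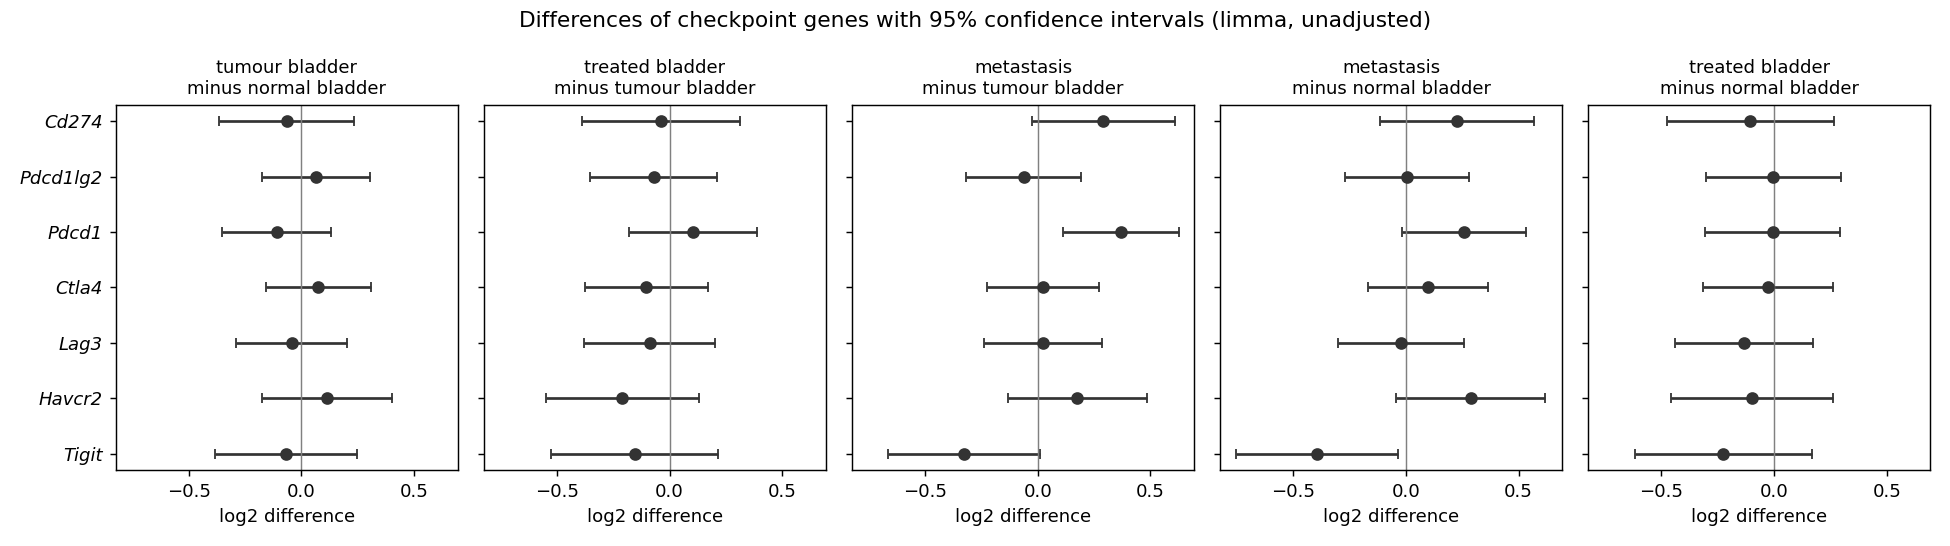
Log2 difference of each of the 7 genes (x axis) in the 5 comparisons (panels), with the 95% confidence interval of limma before adjustment. The intervals of Pdcd1 in metastases minus tumour bladders (0.11 to 0.63) and of Tigit in metastases minus normal bladders (-0.76 to -0.034) leave out 0, and neither passed after adjustment over all genes.

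The arrays differed in how far the 7 genes lay from their means. On the palbo metastasis, 7 of 7 genes were above their own mean over the 20 arrays, by 0.27 on average, where the median deviation of all genes on that array was 0.029, and 5 of the 7 were among their 3 highest arrays. It is a single sample and was not tested as a group. Metastasis 1 had an average deviation of 0.22, carried by Cd274 and Pdcd1, with 4 of 7 genes above their mean and an all-gene median of -0.089. Tumour bladder 1 averaged 0.20, with 5 of 7 above, but all genes on it were also displaced, by 0.10. Treated bladder 3 and normal bladder 1 had 0 of 7 genes above their means, at -0.21 each, with all-gene medians of -0.099 and -0.038.

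**Figure D3:**
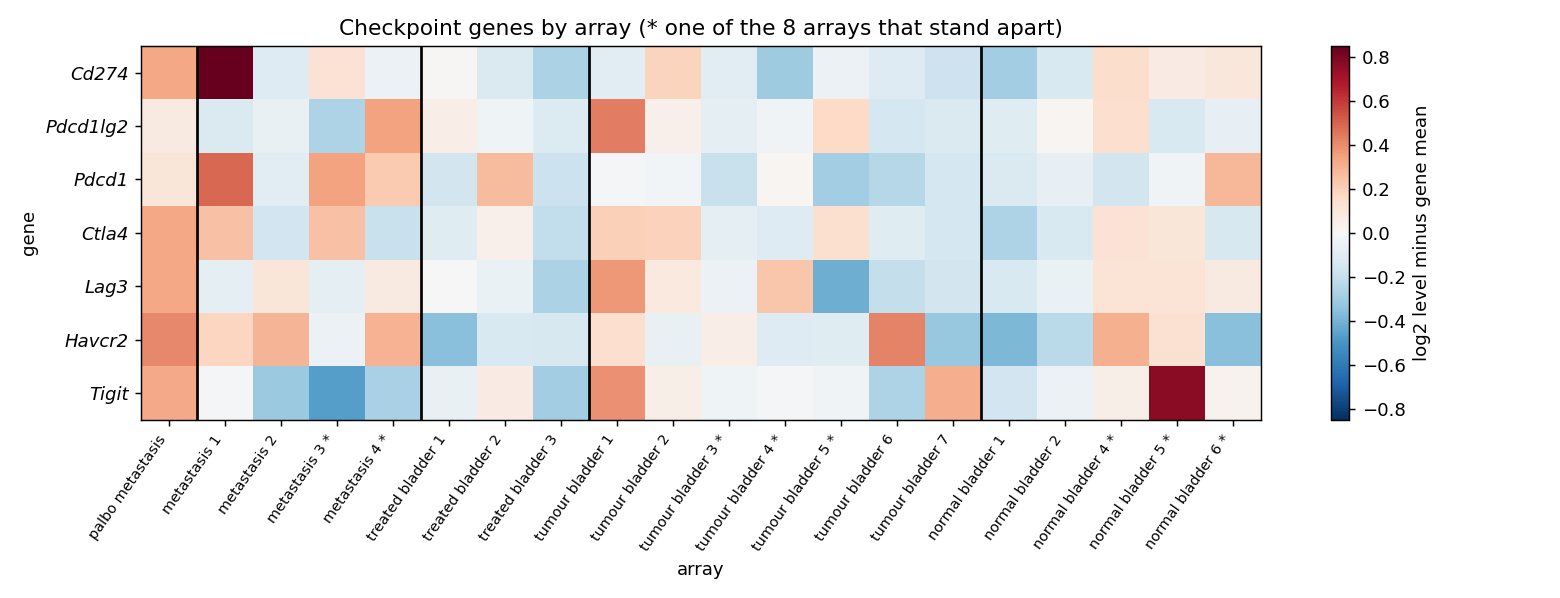
Level of each checkpoint gene (rows) on each array (columns, grouped from the palbo metastasis on the left to normal bladders on the right) minus the gene's mean over 20 arrays, in log2 units by colour. An asterisk marks the 8 arrays that stand apart. The palbo metastasis has all 7 genes above their means, and treated bladder 3 and normal bladder 1 have none.

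Leukocyte and myeloid markers moved with some of these arrays. Over 15 macrophage and monocyte markers, the mean level was 7.76 in the palbo metastasis, 6.49 to 8.03 in metastases, 5.97 to 6.49 in treated bladders, 5.93 to 7.17 in tumour bladders and 5.92 to 6.67 in normal bladders, and metastasis 1 held the highest value. Ptprc, the leukocyte antigen CD45, was at 8.01 in the palbo metastasis and 8.31 in metastasis 1, against 6.44 to 6.64 in metastases 2 to 4. Metastases 3 and 4 are among the 8 arrays, where Ptprc had an SD of 0.124, against 1.024 over the 12. The macrophage and monocyte mean lay at 6.46 to 6.67 on the 8 and at 5.92 to 8.03 on the 12. Of the bladders, tumour bladder 6, where Havcr2 was highest, had the most Ptprc, at 8.06. Metastasis 1 was also the highest array for the costimulatory ligands Cd80 (6.16) and Cd86 (7.69), for the CD8 chain Cd8a (5.51) and for the macrophage growth factor receptor Csf1r (7.28). Cd68, a lysosomal protein of macrophages, was higher on metastasis 2 (8.29), where Cd274 was at 4.91, than on metastasis 1 (8.01). Over 16 T and NK cell markers the mean was 5.67 in the palbo metastasis, 5.17 to 5.49 in metastases, 5.09 to 5.41 in treated bladders, 5.31 to 5.51 in tumour bladders and 5.25 to 5.50 in normal bladders. Of the 16, 3 were higher in metastases than in tumour bladders, with a median of -0.14. The T cell receptor subunit Cd3e averaged 4.97 ± 0.17 (SD, n = 4) in metastases and 5.32 ± 0.27 (SD, n = 7) in tumour bladders. Cd8a went the other way, at 5.03 ± 0.34 (SD, n = 4) in metastases and 4.875 ± 0.18 (SD, n = 7) in tumour bladders. Over 8 B cell and lymph node markers the palbo metastasis had the highest mean of all arrays, 6.80, and the metastases lay at 5.64 to 6.40. The part of these cell types in the levels of the checkpoint genes was not tested.

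**Figure D4:**
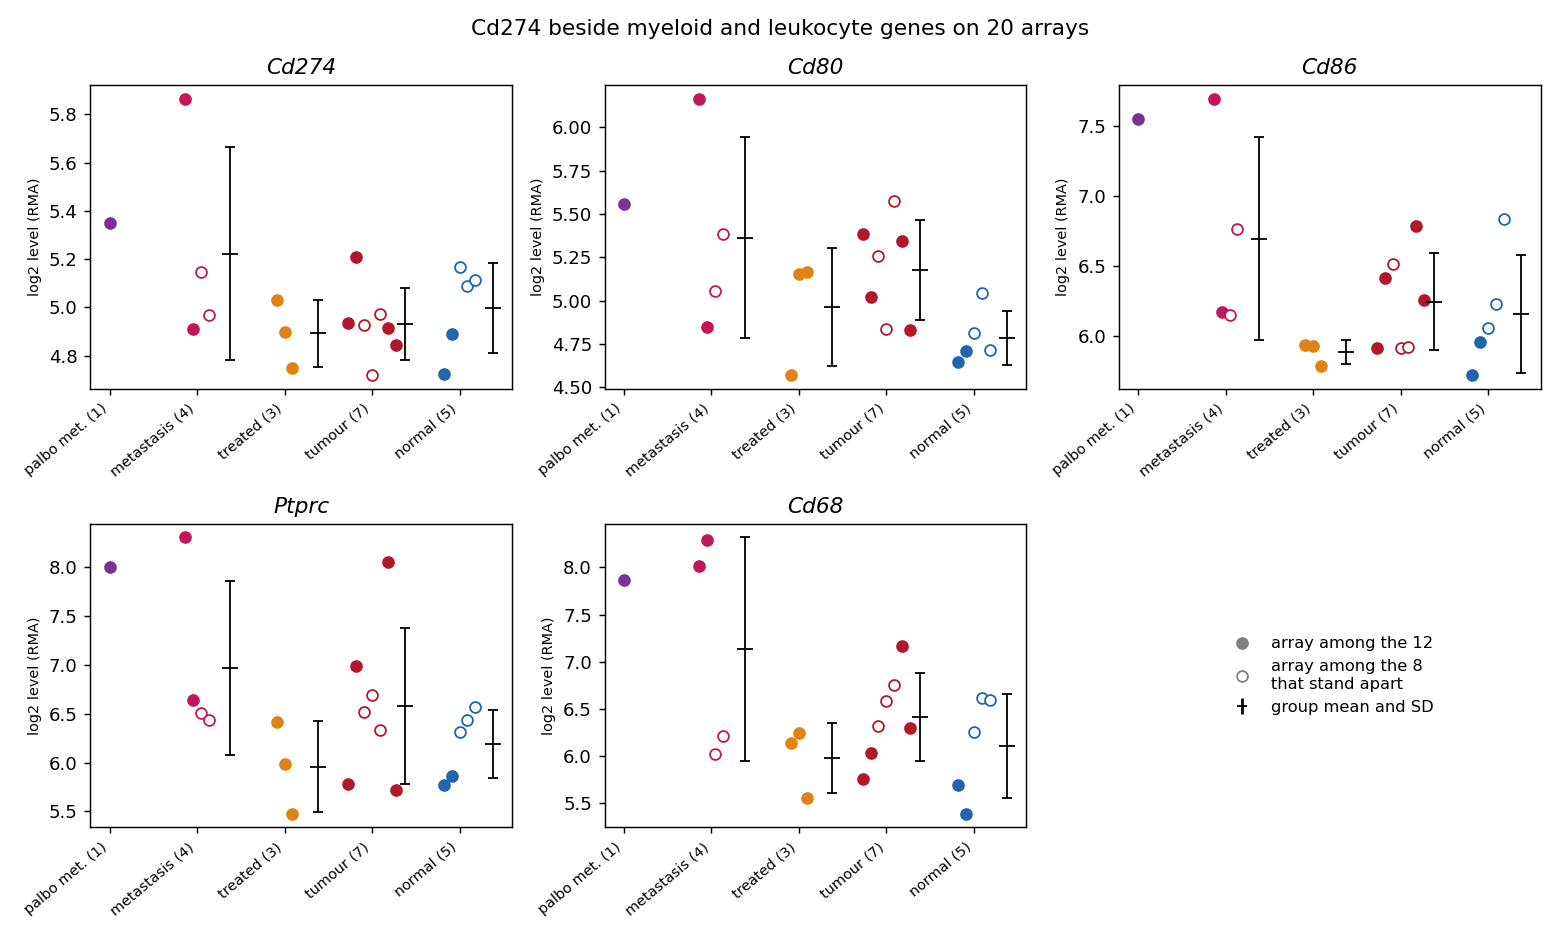
Level of Cd274 beside 4 leukocyte and myeloid genes, Cd80, Cd86, Ptprc and Cd68 (y axis, log2 level after RMA), on every array in 5 groups (x axis). Points are arrays, open points are the 8 that stand apart, and bars are the group mean and SD. Metastasis 1 leads Cd274, Cd80, Cd86 and Ptprc, while metastasis 2 leads Cd68.

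The partners of these genes were followed through 4 lists, in which no gene passed in any comparison. The 9 other members of the B7 and CD28 families include the ligands of CTLA-4. In metastases, 6 of 9 were higher than in tumour bladders, with a median of 0.040 against -0.026 over all genes, but 4 of 9 and -0.0072 without metastasis 1. Cd86 differed by 0.45 (adjusted p = 0.861 in limma), and by 0.12 without metastasis 1. The inhibitory receptor Btla differed by -0.40 (adjusted p = 0.861 in limma). Against normal bladders, Cd80 was at 0.58 in metastases (adjusted p = 0.720 in limma), at 0.31 in them without metastasis 1, and at 0.39 in tumour bladders (adjusted p = 0.998 in limma). In treated bladders, 3 of 9 were higher than in tumour bladders, and Cd86 was at -0.36 (adjusted p = 1 in limma).

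The nectin axis and other checkpoint ligands had 19 measured genes. Nectin receptors compete with TIGIT: CD226 activates T and NK cells through the same ligands, and CD96 binds one of them. Metastases had 11 of 19 higher than tumour bladders, with a median of 0.013, and 8 of 19 without metastasis 1, with a median of -0.064. Cd226 was at -0.37 and Cd160, a receptor of NK and T cells, at -0.32 (adjusted p = 0.841 in limma for each). In tumour bladders against normal bladders, Cd160 was at 0.30 and Cd96 at 0.28 (adjusted p = 0.998 in limma for each). Lgals9, which encodes galectin-9, a ligand of TIM-3, was at -0.40 in treated against normal bladders (adjusted p = 1 in limma), and 4 of the 19 genes were higher in treated than in tumour bladders.

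The interferon gamma axis, which induces PD-L1, had 15 measured genes, of which 11 were higher in metastases than in tumour bladders, with a median of 0.12. Without metastasis 1, 7 of 15 were, with a median of -0.034. Irf8, a transcription factor of myeloid cells that interferon gamma induces, averaged 6.35 ± 0.23 (SD, n = 4) in metastases, against 5.99 ± 0.17 (SD, n = 7) in tumour bladders, a gap of 0.37 (adjusted p = 0.841 in limma). Against normal bladders, which averaged 5.84 ± 0.08 (SD, n = 5), it was 0.52 (adjusted p = 0.717 in limma). Ifng itself, the cytokine, went the other way, at -0.41 against tumour bladders and -0.44 against normal bladders (adjusted p = 0.841 and 0.720 in limma). Its mean over the 20 arrays was 4.74, under the 40th percentile of all rows. Without normal bladder 6, its highest array and among the 8, the gap to normal bladders was -0.32. Tumour bladders had 11 of 15 higher than normal bladders, with the chemokine Cxcl10 at 0.51 (adjusted p = 0.998 in limma). In treated bladders 3 of 15 were higher than in tumour bladders.

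The costimulatory receptors and ligands of the TNF family had 9 measured genes. None of the 9 was higher in treated than in tumour bladders, with differences from -0.31 (Tnfsf18) to -0.060 and a median of -0.11, where the median of all genes was -0.023. The lists of T and NK, dendritic and B cells given above likewise had no higher member in treated bladders, and without treated bladder 3, 3 of the 9 were higher. Metastases had 2 of 9 higher than tumour bladders, with Tnfrsf4, the receptor OX40 of activated T cells, at 0.29 (adjusted p = 0.861 in limma) and at 0.18 without metastasis 1. Without metastasis 2 the count was 5 of 9, and without tumour bladder 1 also 5 of 9. Tumour bladders had 8 of 9 higher than normal bladders, with a median of 0.081, or 0.017 without tumour bladder 1. Of 5 genes of MHC class II presentation, whose classical molecules are ligands of LAG-3, 4 were higher in metastases than in tumour bladders, with a median of 0.21 and a highest array mean of 6.72 on metastasis 1, where Lag3 was at 5.12. Without metastasis 1, 2 of 5 were higher and the median was -0.061.

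Genes whose levels followed each checkpoint gene most closely were ranked by Pearson's r over the 20 arrays, as a description, since all share the same arrays. Predicted and clone-named genes, small RNAs, olfactory and vomeronasal receptors, pseudogenes, and immunoglobulin and T cell receptor segments were left out of the ranking. Closer genes among these would not be named. The highest of many r values over 20 arrays is high in part by the choice itself. Cd274 was followed by Atp8b4 (r = 0.922), the leukocyte inhibitory receptor Lair1 (0.913) and the interferon-induced Sp110 (0.909), and without metastasis 1 these were 0.817, 0.797 and 0.773 over 19 arrays. Havcr2 was followed by Syk, a kinase of immune receptors, at 0.806 over the 20 arrays and 0.918 over the 12. Wdr3 (0.803) and Nt5dc2 (0.783) followed it nearly as closely over the 20 arrays, and were at 0.801 and 0.868 over the 12. Pdcd1 was followed by Serpinb10 (0.904), Erbb4 (0.872) and Dennd2a (0.79). Pdcd1lg2 was nearest to Retnlb (0.907), Ctla4 to Pla2g4c (0.868), Lag3 to Speer3 (0.908) and Tigit to Zfp14 (0.829). Without the highest array of each checkpoint gene, these values were 0.893, 0.837, 0.885 and 0.766 over 19 arrays. Retnlb and Zfp14 had means of 4.64 and 4.84, under the 40th percentile of all rows. None of the other 6 checkpoint genes was among the 3 nearest of any.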

How the data were processed

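The authors deposited log2 expression levels of 65956 rows, made by RMA in Affymetrix Expression Console per the submitters' processing notes. A kit for fixed, embedded tissue was used to extract the RNA, per the labels. The base of the logarithm was taken as 2, since RMA gives log2. The genome build of the array design is not given in the sources used here. Of the rows, 30604 have 1 gene symbol, 2146 have several and 33206 have none. Symbols were updated for 827 rows, and of several rows of a gene (355 genes) the one with the highest mean was kept, leaving 30142 genes. Coordinates, promoters and gene names are from RefSeq tables of GRCm38.p6.

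A model with the 5 title groups was fitted in limma 3.58.1 (R 4.3.3) with lmFit and eBayes, and tested on simulated data with known differences. Replicates are not stated to come from separate animals, so p-values measure the spread between these samples. The number of arrays limits the precision. The 8 arrays that stand apart, a set drawn from the values, have an SD above 0.30 in dim rows (mean 4.5 to 5.0) and no correlation of 0.25 or more with another array, taken over the 5317 rows whose mean was 7 or higher. The text names all 7 genes, the 3 ranked genes most like each, and chosen markers. From 4 lists, examples are given of the 2 genes with the smallest p in each comparison. Members and lists were chosen with earlier results of these data known.

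Replicate numbers shared between groups did not pair the samples. The deviations of same-numbered samples correlated between -0.59 and 0.32 across genes, and the fit has no block. Alternatives were other samples, weights, scalings, model terms, row rules and filters, and each array left out in turn. For the other genes and lists, leaving out arrays was added after seeing the data, without a test.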

Additional observations from a re-analysis of the deposited data

Results flagged for a closer look

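In 21 sets of 4 to 7 arrays (each of the 7 genes in metastases, tumour bladders and normal bladders), 2 arrays lay far from the rest of their group by Dixon's test at the 95% level, and chance alone gives about 1 set in 20. Pdcd1 was at 5.782 on normal bladder 6, where the other normal bladders lay between 5.35 and 5.47. Tigit was at 5.444 on normal bladder 5, where the other normal bladders lay between 4.51 and 4.73. Both are among the 8 arrays that stand apart. On both of them the remaining checkpoint genes lay inside the range of the other groups, but for Havcr2 on normal bladder 6. There Havcr2 was at 4.958, just under the lowest array of the other groups, treated bladder 1. Without normal bladder 5, the difference of Tigit between metastases and normal bladders was -0.23, and without normal bladder 6 that of Pdcd1 was 0.33. The reason for either value was not tested.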

How the results depend on the processing

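Each of the 35 differences of the 7 genes was recomputed under every alternative that gave a value, 664 values in all. None passed the threshold, the smallest adjusted p being 0.2585 (Havcr2, metastases against normal bladders, array weights in limma). Under these alternatives the sign was kept for 17 differences, among them Cd274, Pdcd1, Havcr2 and Tigit in metastases against tumour and against normal bladders, and turned 78 times among the other 18. Within the 8 arrays alone, which is not among these alternatives, Cd274 in metastases against normal bladders was at -0.066. The filter on dim genes gave no value for Cd274, Pdcd1lg2 and Tigit, whose means are below it. With array weights, the sign turned for tumour against normal bladders in Cd274 (0.021), Lag3 (0.0014), Tigit (0.012), for treated against tumour bladders in Cd274 (0.051), Pdcd1lg2 (0.016), for metastases against tumour bladders in Ctla4 (-0.012), for metastases against normal bladders in Lag3 (0.045), for treated against normal bladders in Cd274 (0.072), Pdcd1lg2 (0.067), Ctla4 (0.017). Without the 8 arrays that stand apart, the sign turned for tumour against normal bladders in Cd274 (0.17), Lag3 (0.12), Tigit (0.23), for metastases against tumour bladders in Lag3 (-0.014), for metastases against normal bladders in Pdcd1lg2 (-0.049), Lag3 (0.10), for treated against normal bladders in Cd274 (0.085), Pdcd1lg2 (0.011), Pdcd1 (0.069), Ctla4 (0.11), Havcr2 (0.10), Tigit (0.0082). With renewed quantile normalisation, the sign turned for treated against tumour bladders in Cd274 (0.027), for metastases against normal bladders in Lag3 (0.035), for treated against normal bladders in Pdcd1lg2 (0.044), Pdcd1 (0.057), Ctla4 (0.028). With arrays centred on their medians, the sign turned for treated against tumour bladders in Cd274 (0.020), for metastases against normal bladders in Lag3 (0.038), for treated against normal bladders in Pdcd1lg2 (0.056), Pdcd1 (0.054), Ctla4 (0.033). With the replicate number as a block, though it is not stated that the numbers pair the samples, the sign turned for metastases against tumour bladders in Ctla4 (-0.016), Lag3 (-0.15), for metastases against normal bladders in Lag3 (0.057), for treated against normal bladders in Cd274 (0.16), Pdcd1lg2 (0.055), Pdcd1 (0.15), Ctla4 (0.17), Lag3 (0.067), Havcr2 (0.067), Tigit (0.11). With the palbo metastasis counted as a metastasis, the sign turned for metastases against normal bladders in Lag3 (0.044). With the 8 arrays as a term in the model, the sign turned for treated against normal bladders in Pdcd1lg2 (0.013), Pdcd1 (0.018). Leaving out 1 array in turn, the sign turned, with the range of values, for tumour against normal bladders in Lag3 (-0.11 to 0.022), Tigit (-0.14 to 0.091), for treated against tumour bladders in Cd274 (-0.11 to 0.032), Pdcd1 (-0.041 to 0.18), for metastases against tumour bladders in Pdcd1lg2 (-0.19 to 0.015), Ctla4 (-0.049 to 0.10), Lag3 (-0.043 to 0.087), for metastases against normal bladders in Pdcd1lg2 (-0.12 to 0.082), Lag3 (-0.060 to 0.0081), for treated against normal bladders in Pdcd1lg2 (-0.050 to 0.040), Pdcd1 (-0.15 to 0.073), Ctla4 (-0.095 to 0.032), Havcr2 (-0.17 to 0.0042). The number of genes passing was 0 in all 5 comparisons and stayed at 0 with these exceptions. Without the 8 arrays that stand apart, 3 genes passed for metastases against tumour bladders and 3 for metastases against normal bladders (Ahsg, Ctsk and Lyz1 in both, named after their values were seen), and 1, Gm3534, passed for metastases against normal bladders with only the 2 groups in the model. None is a checkpoint gene. The cause of these changes was not tested. The number of arrays limits the precision, and no measure of signal over background was used.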
